A study of Mus musculus with 18 samples.

Results

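Mouse NIH3T3 fibroblasts that carry a fusion of mCherry, a red fluorescent protein, with mouse TRIM21 were electroporated with bovine serum albumin (BSA) or with phosphate-buffered saline (PBS), and their mRNA was sequenced. This comparison holds 6 of the 18 libraries of the series, the 3 with the source Trim_21_BSA and the 3 with the source Trim_21_PBS, and it addresses what a delivered protein that is not an antibody does in the TRIM21 line. All 6 came from the cell line named NIH3T3-mCherry-mTRIM21 (genotype mCherry-mTRIM21, tissue embryonic fibroblasts). Every reaction received 2 pulses of 20 ms at 1400 V, with 7.5 µg of protein in the BSA reactions, and cells were lysed 16 h later. The other 12 libraries were the IgG reactions of the same line and the PBS, BSA and IgG reactions of parental NIH3T3 cells (genotype wild-type, called WT here). Titles number the libraries 10, 11 and 14 within each group, and values below always follow that order. The promoter of the fusion and whether the line is 1 clone are not given in the sources used here. Nothing in the labels says whether the 3 libraries of a group came from separate cultures. The p-values therefore rest on the spread between libraries within groups, estimated over all 18 libraries, which may be technical.

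TRIM21 acts in the cytosol as an Fc receptor: it recognises antibody-coated material, attaches ubiquitin and so sends the complex to the proteasome. Albumin is an abundant serum protein that carries fatty acids and hormones and is not an antibody. Electroporation opens the plasma membrane for a short time, so that proteins in the medium reach the cytosol. Foreign protein, membrane injury or stray nucleic acid in the cytosol can engage the heat shock, unfolded protein, membrane repair, lysosomal, interferon and NF-kB responses, and each of these was examined as a list of genes.

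The 6 libraries held 20314542 to 29766433 reads assigned to genes. Levels are given as CPM, counts scaled to a library of 1e6 reads, with TMM factors of 0.985 to 1.03. The summed marker levels in this paragraph were scaled to gene-assigned reads without the TMM factors. Reads assigned to no gene made up 13.99% to 18.4% of the reads that HTSeq placed in 1 gene or in none. Of 12 macrophage and leukocyte markers, 4 had 0 counts in all 6 libraries, and the list summed to 13.3 to 15.9 CPM after PBS and 13.1 to 16.1 after BSA. Epithelial markers (4 of 10 at 0 counts throughout) summed to 1.48 to 2.37 CPM after PBS and 1.39 to 1.48 after BSA. Endothelial markers (2 of 8 at 0 counts throughout) summed to 0.744 to 2.66 and 0.941 to 1.23 CPM. The fibroblast markers summed to 17725 to 29066 CPM after PBS and 24883 to 30053 after BSA, with the lowest value in PBS 11. In bulk RNA, fewer cells of a type and less RNA per cell cannot be told apart.

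Trim21 itself (chromosome 7, 102557921 to 102565486, minus strand, GRCm38, protein coding) was the most direct check of the labels. It measured 1069, 1188 and 989 CPM after PBS and 996, 1028 and 1054 after BSA, with a log2 fold change of -0.077 (95% interval -0.34 to 0.19). All 6 values lay far above those of the WT line, where the PBS libraries had 6.72, 8.1 and 9.73 CPM and the BSA libraries 8.41, 6.54 and 8.39. Counts include any read of the fusion that aligned to Trim21 exons. The PBS and BSA ranges overlapped, so no difference in Trim21 mRNA beyond the spread between libraries was measured. The highest value was that of PBS 11, and without it the log2 fold change was 0.011.

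No gene passed the test between BSA and PBS. Of 12140 genes tested with edgeR (quasi-likelihood, Benjamini-Hochberg adjusted), 0 (0%) came under an adjusted p of 0.05, the lowest being 0.841. Before adjustment 447 genes (3.68%) had p under 0.05, of which 175 (1.44%) were higher and 272 (2.24%) lower after BSA, where the threshold alone would pass 607. Limma-voom and the DESeq2 Wald test called 0 genes too, and 442 and 509 had an unadjusted p under 0.05. These fits did not pair the libraries by title number. With that number as a block, edgeR again called 0 genes, but 1108 had an unadjusted p under 0.05, above the 607. With a GC offset as well it was 1742. The 3 BSA values lay above the 3 PBS values for 337 genes (2.78%) and below them for 330 (2.72%). The log2 fold change was above 0 for 50.1% of genes and below 0 for 49.9%, with a median of 0.00038. In the main edgeR fit, without the block, every adjusted p-value for BSA against PBS in this line was at least 0.841. Genes are therefore given by their values, log2 fold change and 95% interval from that fit, which is unadjusted.

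The intervals say how much room the data leave, given a spread estimated over all 18 libraries. Over genes of at least 5 CPM, the median standard deviation in log2 CPM was 0.184 in the TRIM21 PBS group. That was the largest of the 6 groups, beside 0.138 in the TRIM21 BSA group and 0.102 to 0.169 in the rest. An interval from the shared spread can therefore be too narrow for this comparison. For 11187 of 12140 genes (92.1%) the whole 95% interval lay inside a 2-fold difference in either direction, and for 8708 (71.7%) inside 1.5-fold. Among the 9883 genes with a mean of at least 5 CPM over the 6 libraries, 98.9% lay inside 2-fold and 84.4% inside 1.5-fold, and 1 gene had an estimate beyond 2-fold. The median half-width of the interval was 0.30 on the log2 scale over all tested genes. A 2-fold difference thus lay outside the interval of most genes, and smaller ones often lay inside it.

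**Figure D1:**
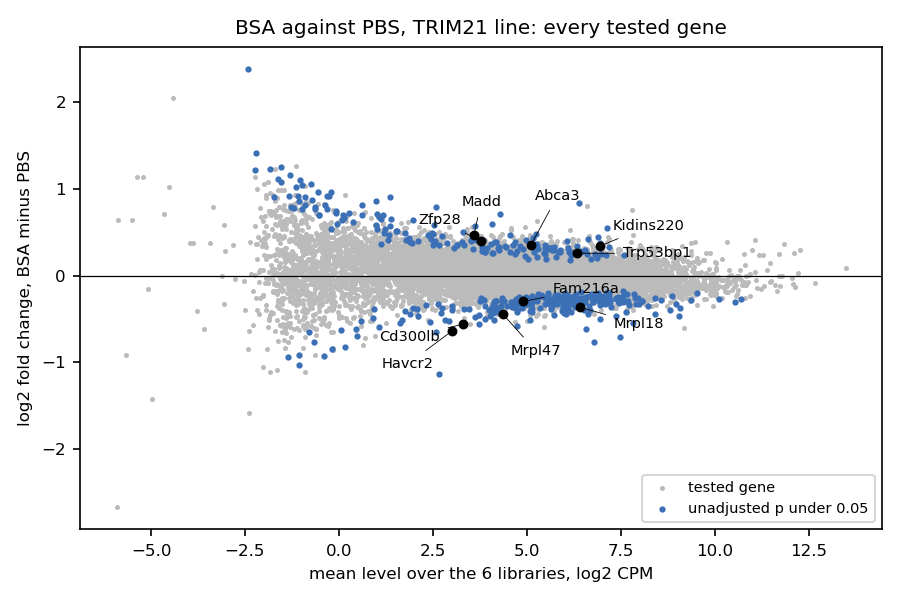
Log2 fold change of BSA against PBS in the TRIM21 line (vertical axis) against the mean level over the 6 libraries in log2 CPM (horizontal axis) for 12138 of the 12140 tested genes, leaving out 2 without counts in these libraries. Blue points have an unadjusted p-value under 0.05, black points are the 5 genes with the smallest p-values in each direction among those of at least 5 CPM, and no gene passed after adjustment.

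The library PBS 11 stood apart from the other 5. The root mean square difference in log2 CPM, over the 9883 genes of at least 5 CPM, was 0.384 to 0.485 between PBS 11 and each other library and 0.154 to 0.296 for the other 10 pairs. PBS 10 and PBS 14 differed by 0.261 from each other, and by 0.154 to 0.296 from the 3 BSA libraries. The BSA libraries differed by 0.255 to 0.265 among themselves. Leaving PBS 11 aside, the nearest pair of all was thus a PBS library with a BSA library, PBS 10 with BSA 10. Next came PBS 14 with BSA 14 at 0.191, so both of these pairs shared a title number. PBS 10 with BSA 11, of unlike numbers, followed closely at 0.194, and PBS 11 with BSA 11 stood at 0.410. PBS 11 was the library farthest from the median of the 6 for 5631 of 12140 genes (46.4%), against 6.29% to 15.1% for each of the others. It also had the fewest gene-assigned reads of the 6. Its median contrast between GC-rich and GC-poor genes (the extreme quintiles by transcript GC content) was -0.071, inside the range of -0.24 to 0.26 of the other 5.

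**Figure D2:**
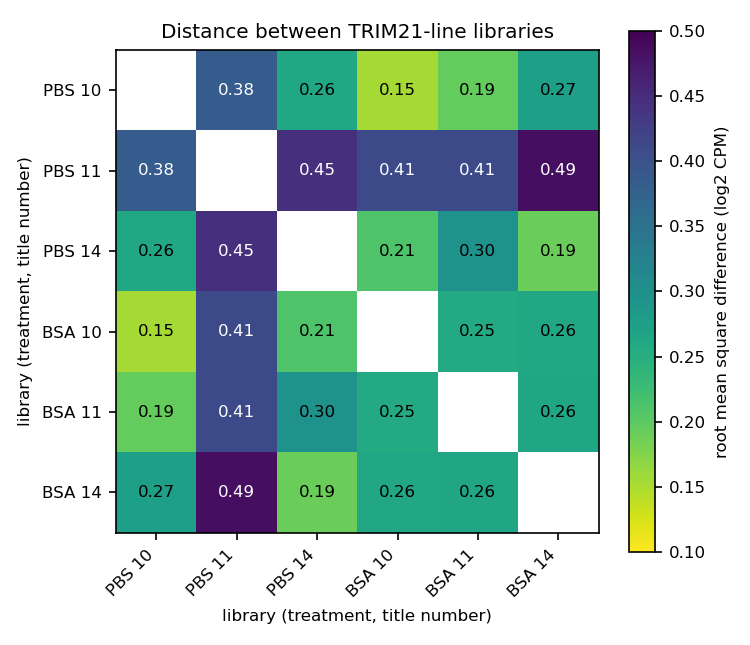
Root mean square difference in log2 CPM between each pair of the 6 TRIM21-line libraries, over 9883 genes of at least 5 CPM. The row and column of PBS 11 hold the 5 largest values (0.384 to 0.485), and the blocks that join PBS 10 and 14 to the BSA libraries (0.154 to 0.296) span the values within BSA (0.255 to 0.265).

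Without PBS 11, the comparison called 0 of 12230 genes (0%), and 72 (0.589%) had an unadjusted p under 0.05. Of the 447 genes with an unadjusted p-value under 0.05 in the full comparison, 344 (77.0%) had PBS 11 as the library farthest from the median. All 447 kept their direction without it, and 40 kept an unadjusted p-value under 0.05; both fits share 5 of the 6 libraries. Medians without PBS 11 are given for most lists, and the plot of list medians by line shows them for all. Over all tested genes PBS 11 was the highest of the 6 libraries for 30.7% and the lowest for 32.5%, which is the background for the counts given per list.

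The gene lists held 705 distinct genes, 644 of them tested, and 0 of these passed after adjustment, as for all genes. For the 23 lists with at least 5 tested members, median log2 fold changes ran from -0.23 for the proteasome subunits to 0.21 for the fibroblast markers, beside 0.00038 over all tested genes. Without PBS 11 the medians of these lists were -0.11 for the proteasome subunits and 0.0082 for the fibroblast markers. Of the 116 genes marked in these lists as first readouts, 115 were tested. Of these 9 had an unadjusted p-value under 0.05, beside 3.68% of all tested genes, and 106 had an interval inside 2-fold, near the 92.1% of all tested genes. The lists and their members were chosen with earlier results of these data known. Counts of members, here and below, therefore describe these libraries and are no test of a list.

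**Figure D3:**
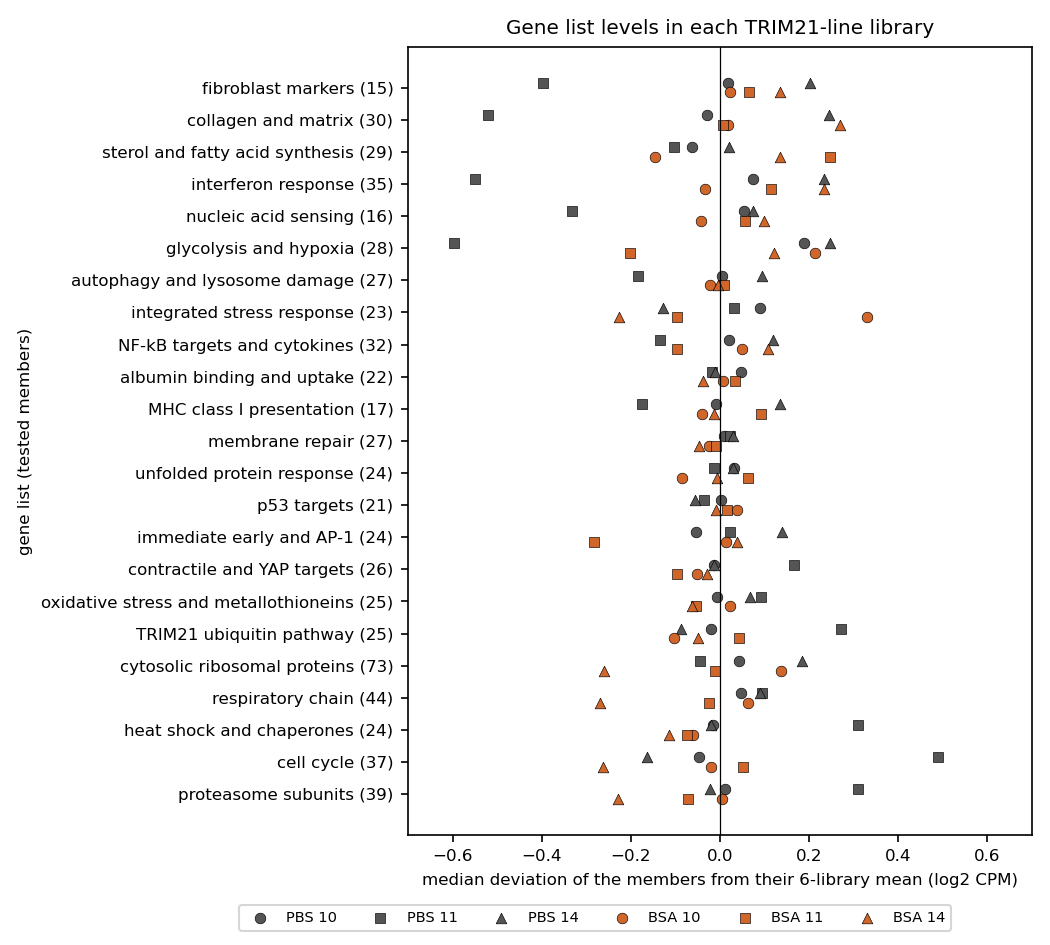
Level of each gene list in each of the 6 libraries, as the median over tested members of the deviation from their 6-library mean in log2 CPM. Grey symbols are PBS and orange symbols BSA libraries, and lists are ordered by their median log2 fold change; the grey square of PBS 11 is the highest or lowest symbol in most lists, from -0.60 (glycolysis and hypoxia) to 0.49 (cell cycle).

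Proteins that TRIM21 works with came first. TRIM21 is primed by the conjugating enzyme Ube2w, extends chains with Ube2n and its partner Ube2v2, and the unfoldase Vcp helps to unfold substrates before the proteasome. Of 25 tested members of this list 2 were higher and 23 lower after BSA, with a median log2 fold change of -0.12. Ube2n, the member with the smallest p-value, measured 77.2, 92.9 and 69.9 CPM after PBS and 68, 75.7 and 59.2 after BSA, a log2 fold change of -0.24 (95% interval -0.47 to -0.010). Ube2w had 61.3, 61.3 and 56.5 CPM after PBS and 59.3, 64.1 and 53.7 after BSA, a difference of -0.016 (95% interval -0.22 to 0.19). Ube2v2 had 21.4, 28.3 and 19.5 CPM after PBS and 21.1, 21.7 and 17.9 after BSA, a difference of -0.19 (95% interval -0.50 to 0.12). The PBS and BSA ranges of Ube2n and Ube2w overlapped. For Vcp the levels were 264, 351 and 260.4 CPM after PBS and 230.2, 293 and 284 after BSA, a difference of -0.12 (95% interval -0.36 to 0.13). PBS 11 gave the highest value of Ube2n and Vcp, and was the highest library for 17 of the 25 members. Without it the list's median was 0.0074, with 15 of 25 members higher after BSA.

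The proteasome is the protease that degrades ubiquitin-tagged proteins, built from a core of alpha and beta subunits and a regulatory cap. All 39 listed subunits and regulators were tested, and 2 were higher and 37 lower after BSA. The median log2 fold change of -0.23 was the lowest of those 23 lists, and 10 of 39 members had all 3 BSA values below all 3 PBS values, as did 2.72% of all tested genes. Psma7, a core alpha subunit and the member with the smallest p-value, measured 186, 231 and 200.4 CPM after PBS and 178, 167 and 156 after BSA, with a log2 fold change of -0.30 (95% interval -0.52 to -0.086). Psmc2, an ATPase of the cap, had 179, 205 and 155 CPM after PBS and 169, 148 and 129.8 after BSA, a difference of -0.27 (95% interval -0.53 to -0.010). Psmd14, the deubiquitinase of the cap, had 99.9, 119 and 95.8 CPM after PBS and 98.5, 94.7 and 79.3 after BSA, a difference of -0.21 (95% interval -0.44 to 0.018). Psma7 was the one of these with all BSA values below all PBS values. In all 3 genes PBS 11 was the highest library, and in the PBS and BSA libraries numbered 14 the values were the lowest of their group for Psmc2 and Psmd14. Psmb5, a catalytic core subunit, had 11.8, 15.1 and 14.7 CPM after PBS and 14.5, 8.23 and 10.5 after BSA, and its PBS and BSA ranges overlapped.

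Among the 6 libraries PBS 11 was the highest for 35 of the 39 proteasome genes. Across libraries the level of the list, relative to its 6-library mean, was 0.011, 0.31 and -0.022 after PBS and 0.0048, -0.073 and -0.23 after BSA. BSA 14 was the lowest and PBS 11 the highest, and the other 4 lay between -0.073 and 0.011. Without PBS 11 the median log2 fold change was -0.11, with 5 of 39 higher and 0 at an unadjusted p-value under 0.05.

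Heat shock proteins hold and refold unfolded protein, and their genes are induced by the factor Hsf1 when such protein accumulates. Of 24 tested members 4 were higher and 20 lower after BSA, with a median log2 fold change of -0.18 and 23 intervals inside 2-fold. Dnajb1, a co-chaperone strongly induced by heat shock, measured 62.3, 78.8 and 64.6 CPM after PBS and 63.1, 58.5 and 54.1 after BSA, with a log2 fold change of -0.23 (95% interval -0.43 to -0.026). Hspa8, the constitutive Hsp70, had 1125, 1476 and 1043 CPM after PBS and 1039, 1071 and 907 after BSA, a difference of -0.27 (95% interval -0.54 to -0.0085). Hspa1b, an inducible Hsp70, had 5.7, 11.9 and 8.72 CPM after PBS and 7.27, 7.15 and 9.55 after BSA, a difference of -0.13 (95% interval -0.62 to 0.37). For these 3 genes PBS 11 held the highest value, and the PBS and BSA ranges overlapped. Hsp90aa1, the inducible Hsp90, had 533, 587 and 458 CPM after PBS and 465, 451 and 453 after BSA, and its difference was -0.20 (95% interval -0.41 to 0.00098). Hspa1a and Hspa1b are near-identical copies, and reads that align to several places were not counted, so their levels are uncertain. In all, PBS 11 was the highest library for 19 of 24 members, and without it the list's median was -0.054. The level of the list was -0.017, 0.31 and -0.021 after PBS and -0.062, -0.074 and -0.11 after BSA. All BSA levels thus lay below all PBS levels, and at -0.043, -0.056 and -0.096 against the mean of PBS 10 and PBS 14. Among single members 0 of 24 had all BSA values below all PBS values, beside 2.72% of all tested genes.

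The unfolded protein response watches over folding in the endoplasmic reticulum, and the integrated stress response slows translation and switches on Atf4 and its targets. Of 24 genes of the former 9 were higher and 15 lower after BSA (median -0.039), and of 23 of the latter 12 were higher and 11 lower (median 0.012). Hspa5, the main chaperone of the endoplasmic reticulum, measured 889, 719 and 879 CPM after PBS and 789, 827 and 845 after BSA, a difference of -0.016 (95% interval -0.26 to 0.23). Ddit3, a factor that promotes cell death under prolonged stress, had 28.6, 18.7 and 38.1 CPM after PBS and 35.8, 23.3 and 32.2 after BSA, a difference of 0.094 (95% interval -0.39 to 0.58). Both had overlapping ranges, with PBS 11 as the lowest library. Sdf2l1, a protein of the endoplasmic reticulum, had 13.6, 15 and 16.2 CPM after PBS and 10.9, 12.3 and 13.2 after BSA, and here the BSA values lay below the PBS values, with a difference of -0.30 (95% interval -0.56 to -0.028), and of -0.28 without PBS 11. Atf4 had 799.7, 768 and 702 CPM after PBS and 854, 717 and 684 after BSA, a difference of -0.0094 (95% interval -0.32 to 0.30). Asns, an asparagine synthetase controlled by Atf4, had 450.5, 471 and 285 CPM after PBS and 456, 437 and 303 after BSA, and the 2 libraries numbered 14 were lower than the other 4 under either treatment. Vldlr had the smallest p-value of the list, with 8.37, 3.85 and 5.54 CPM after PBS and 11, 7.24 and 6.61 after BSA and a difference of 0.48 (95% interval -0.16 to 1.13). The level of the integrated stress list was 0.089, 0.030 and -0.13 after PBS and 0.33, -0.10 and -0.23 after BSA, so BSA 10 and BSA 14 spanned the whole range.

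Genes against oxidative stress are driven largely by Nrf2, and metallothioneins bind zinc and copper. Of 25 tested genes 5 were higher and 20 lower after BSA, with a median of -0.11, and of -0.064 without PBS 11. Nqo1, a quinone reductase, measured 35.9, 92.7 and 29.5 CPM after PBS and 38.1, 38.6 and 27.8 after BSA, with a difference of -0.59 (95% interval -1.20 to 0.012). The PBS 11 value was the outlying one, and without it the difference of Nqo1 was 0.11. Hmox1, which degrades heme, had 56, 38.5 and 68.6 CPM after PBS and 65, 31.6 and 61 after BSA, a difference of -0.050 (95% interval -0.51 to 0.41). Mt1, a metallothionein, had 169.9, 98 and 323 CPM after PBS and 224, 133 and 226 after BSA, a difference of -0.021 (95% interval -0.80 to 0.76). In both genes the libraries numbered 11 were the lowest of each treatment. Taldo1, a pentose phosphate enzyme and the member with the smallest p-value, had 189, 282 and 206 CPM after PBS and 202, 141 and 163 after BSA, a difference of -0.42 (95% interval -0.82 to -0.018).

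Interferon response genes act downstream of type I interferon, and nucleic acid sensors such as cGAS (Mb21d1 in the files), STING (Tmem173) and RIG-I (Ddx58) can start that response. Of 45 interferon genes 35 were tested, 25 higher and 10 lower after BSA, with a median of 0.10. Isg15, a ubiquitin-like modifier, measured 3.14, 1.85 and 5.47 CPM after PBS and 3.22, 3.09 and 3.76 after BSA, a difference of -0.078 (95% interval -0.74 to 0.58). Irf7, which amplifies the response, had 0.76, 0.1 and 0.858 CPM after PBS and 0.953, 1.03 and 1.47 after BSA, with BSA above PBS and a difference of 0.96 (95% interval 0.036 to 1.88). PBS 11 was the lowest library for Isg15 and Irf7, and Irf7 had few reads throughout (2 to 45 counts). Across the list PBS 11 was lowest for 26 of 35 genes, and without it the median was -0.025, with 16 of 35 higher. Ifnb1, which codes for interferon beta, had 0 counts in all 6 libraries.

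Among 16 tested sensing genes 11 were higher and 5 lower after BSA, with a median of 0.071. Mb21d1 measured 33, 48 and 33.3 CPM after PBS and 32.8, 33.6 and 33.7 after BSA, a difference of -0.19 (95% interval -0.48 to 0.10). Tmem173 had 15.7, 10.7 and 15.7 CPM after PBS and 11.4, 17.2 and 15.8 after BSA, a difference of 0.075 (95% interval -0.30 to 0.45). Ddx58 had 14.4, 10.2 and 15.1 CPM after PBS and 13.9, 16.8 and 17.9 after BSA, a difference of 0.29 (95% interval -0.072 to 0.65). PBS 11 was at one end in each, highest for Mb21d1 and lowest for Tmem173 and Ddx58, and the other 5 libraries of Mb21d1 lay within 1 CPM of each other. Without PBS 11 the list's median was 0.016.

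NF-kB is the factor that induces many cytokines and chemokines. Of 32 tested genes 15 were higher and 17 lower after BSA, with a median of -0.0020. Ccl2, a monocyte chemokine, measured 53.7, 57.1 and 63.2 CPM after PBS and 56.7, 44 and 56.7 after BSA, a difference of -0.14 (95% interval -0.39 to 0.11). Cxcl1, a neutrophil chemokine, had 3.33, 2.15 and 4.43 CPM after PBS and 3.41, 2.5 and 3.66 after BSA, a difference of -0.058 (95% interval -0.64 to 0.53). Il6 had 1.24, 0.5 and 1.79 CPM after PBS and 0.635, 1.57 and 0.948 after BSA, a difference of -0.22 (95% interval -1.27 to 0.82), and its low counts left a wide interval. The ranges overlapped in all 3. The cytokine genes Il1a and Il1b had 0 counts in all 6 libraries.

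Immediate early genes code for transcription factors such as the AP-1 subunits and answer growth factors or injury within a short time. Of 24 tested 7 were higher and 17 lower after BSA, with a median of -0.088. Fos measured 3.61, 2.3 and 3.29 CPM after PBS and 3.34, 2.01 and 3.24 after BSA, a difference of -0.10 (95% interval -0.55 to 0.36). Egr1 had 158, 148 and 143 CPM after PBS and 153, 120.0 and 145 after BSA, a difference of -0.11 (95% interval -0.37 to 0.16). Fosl1, an AP-1 subunit, had 131, 158 and 135 CPM after PBS and 133, 71.3 and 118 after BSA, a difference of -0.39 (95% interval -0.90 to 0.11). BSA 11 was the lowest library in these 3 genes, and the other BSA values lay within or near the PBS range. Dusp6, a phosphatase that restrains ERK and the member with the smallest p-value, had 118, 133 and 127 CPM after PBS and 119, 94.9 and 114 after BSA, a difference of -0.21 (95% interval -0.40 to -0.015). BSA 11 was the lowest library for Dusp6 as well.

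The targets of p53 include Cdkn1a, which halts the cell cycle, and Mdm2, which degrades p53. Of 21 tested 8 were higher and 13 lower after BSA, with a median of -0.048 and all 21 intervals inside 2-fold. Cdkn1a measured 138, 116 and 136 CPM after PBS and 127, 118 and 137 after BSA, a difference of -0.028 (95% interval -0.26 to 0.20). Mdm2 had 79.5, 89.9 and 82.2 CPM after PBS and 77.1, 83.1 and 80.8 after BSA, a difference of -0.062 (95% interval -0.24 to 0.11). Fas, a death receptor, had 5.61, 3.4 and 4.58 CPM after PBS and 6, 7.24 and 5.43 after BSA, a difference of 0.45 (95% interval 0.0030 to 0.90). The ranges overlapped in all 3, and PBS 11 was the lowest library for Cdkn1a and Fas.

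Membrane repair rests on annexins that bind calcium and phospholipid, on dysferlin relatives such as Myof and on ESCRT proteins that shed damaged membrane. Of 27 tested 10 were higher and 17 lower after BSA, with a median of -0.034 and all 27 intervals inside 2-fold. Anxa2 measured 3332, 3047 and 3201 CPM after PBS and 3321, 2799 and 2736 after BSA, a difference of -0.11 (95% interval -0.36 to 0.14). Anxa5, the member with the smallest p-value, had 669, 798 and 675 CPM after PBS and 668, 624 and 608 after BSA, a difference of -0.17 (95% interval -0.36 to 0.019). Myof had 639, 645 and 516 CPM after PBS and 627, 612 and 579 after BSA, a difference of 0.014 (95% interval -0.21 to 0.24). For Anxa5 the BSA values lay just below the PBS values, with PBS 11 the highest, and for Anxa2 and Myof the ranges overlapped. Of the 23 lists with at least 5 tested members, this one had the narrowest range of levels over the 6 libraries. Its levels were 0.0094, 0.022 and 0.028 after PBS and -0.024, -0.0089 and -0.046 after BSA, all BSA below all PBS. That order held for 3 of 27 members, beside 2.72% of all tested genes.

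Proteins that bind or take up albumin were listed because albumin was the cargo. Fcgrt codes for the neonatal Fc receptor, which rescues albumin and antibodies from lysosomes, Cav1 for caveolin, Sparc for a matrix protein that binds albumin, and Lrp1 and Dab2 for an endocytic receptor and an adaptor. Of 22 tested genes 11 were higher and 11 lower after BSA, with a median of -0.0031. Fcgrt measured 38.5, 19 and 58 CPM after PBS and 43.8, 41.3 and 56.7 after BSA, a difference of 0.29 (95% interval -0.29 to 0.88), and of -0.018 without PBS 11, its lowest library. Cav1 had 1847, 1438 and 1877 CPM after PBS and 1675, 1906 and 2020.3 after BSA, a difference of 0.12 (95% interval -0.16 to 0.40). Sparc had 2102, 1755 and 2503 CPM after PBS and 2099, 2185 and 2241 after BSA, a difference of 0.037 (95% interval -0.23 to 0.31). None of the 3 separated the treatments. Lrp1, with the smallest p-value, had 963, 623 and 972 CPM after PBS and 1137, 863 and 1075 after BSA, a difference of 0.26 (95% interval -0.21 to 0.74). Dab2 had 139, 163 and 119.7 CPM after PBS and 121, 137 and 132 after BSA, a difference of -0.11 (95% interval -0.34 to 0.12), with overlapping ranges.

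Autophagy receptors and lysosomal genes, which deal with aggregates and damaged endosomes, numbered 27 tested, 16 higher and 11 lower after BSA (median 0.024). Sqstm1, the receptor p62, measured 201, 163 and 248 CPM after PBS and 209, 209 and 239 after BSA, a difference of 0.10 (95% interval -0.17 to 0.38). Lgals3, a galectin that binds damaged endosomes, had 797, 657 and 883 CPM after PBS and 859.5, 755 and 726 after BSA, a difference of 0.0015 (95% interval -0.30 to 0.30). Nbr1, another receptor and the member with the smallest p-value, had 149, 109 and 145 CPM after PBS and 140.4, 157 and 165 after BSA, a difference of 0.20 (95% interval -0.063 to 0.46). PBS 11 was the lowest library for each of them, and the ranges overlapped. Genes of MHC class I presentation, which displays peptides from degraded protein, numbered 17 tested, 8 higher and 9 lower (median -0.019). Tap1, a peptide transporter, had 14.2, 11.5 and 17.4 CPM after PBS and 17.3, 16.9 and 19.1 after BSA, a difference of 0.30 (95% interval -0.012 to 0.62). B2m, the light chain, had 443, 398 and 469.5 CPM after PBS and 420.3, 450.5 and 419 after BSA, a difference of -0.024 (95% interval -0.26 to 0.21). All 17 intervals lay inside 2-fold.

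Growth and metabolic genes made up the rest of the lists. Cell cycle genes numbered 37 tested, 4 higher and 33 lower after BSA, with a median of -0.23. Mki67, a marker of dividing cells, measured 260.3, 351 and 224 CPM after PBS and 198, 365 and 268 after BSA, a difference of -0.0090 (95% interval -0.43 to 0.41). Ccnd1, the G1 cyclin D1, had 290.0, 414 and 242 CPM after PBS and 312, 213 and 230.2 after BSA, a difference of -0.32 (95% interval -0.77 to 0.12). Ccne2, cyclin E2 and the member with the smallest p-value, had 73.5, 90.2 and 58.2 CPM after PBS and 65.5, 58 and 43.8 after BSA, a difference of -0.41 (95% interval -0.77 to -0.046). The cell cycle list was highest in PBS 11 for 31 of the 37 genes, and without it 20 were higher after BSA and the median was 0.022.

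Glycolysis and hypoxia genes lay the other way in PBS 11, which was the lowest library for 24 of 28. With it 18 were higher after BSA and the median was 0.040. Without it 1 was higher and the median was -0.14. The level of the list was 0.19, -0.60 and 0.25 after PBS and 0.21, -0.20 and 0.12 after BSA. Against the mean of PBS 10 and PBS 14, BSA 10, 11 and 14 lay at -0.0050, -0.42 and -0.096. Leaving out BSA 11 instead of PBS 11 gave a median of 0.18. Vegfa, a growth factor for vessels that hypoxia induces, measured 180.5, 87.6 and 188 CPM after PBS and 196, 123 and 188 after BSA, a difference of 0.15 (95% interval -0.36 to 0.66). Ldha, lactate dehydrogenase, had 3665, 3069 and 3812 CPM after PBS and 3714, 2959 and 3018 after BSA, a difference of -0.12 (95% interval -0.40 to 0.16). Hif1a, the hypoxia factor itself, had 336, 233 and 309 CPM after PBS and 327, 377 and 329 after BSA, a difference of 0.23 (95% interval -0.045 to 0.51). PBS 11 and BSA 11 were the low libraries for Vegfa, BSA 11 and BSA 14 the lowest for Ldha, and PBS 11 the lowest for Hif1a. The ranges overlapped in all 3.

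Sterol and fatty acid synthesis genes, driven by the SREBP factors, were mostly higher after BSA, by small amounts. Of 29 tested 27 were higher after BSA with it and 27 without it, and the median was 0.11 and 0.11. The median moved more with other libraries, to 0.068 without PBS 10, 0.076 without BSA 11 and 0.20 without BSA 10. Stard4, a sterol carrier and the member with the smallest p-value, had 47.3, 35.5 and 42.5 CPM after PBS and 47, 63.1 and 45.4 after BSA, a difference of 0.31 (95% interval 0.0036 to 0.61). The PBS and BSA ranges of Stard4 overlapped, with BSA 11 the highest library. The level of the whole list was -0.062, -0.10 and 0.021 after PBS and -0.15, 0.25 and 0.13 after BSA. Scd2, a fatty acid desaturase, had 1998, 1304 and 2122 CPM after PBS and 1898, 2340.0 and 2399 after BSA, a difference of 0.29 (95% interval -0.034 to 0.62). No member had all 3 BSA values above all 3 PBS values.

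Ribosomal protein and respiratory chain genes were lower after BSA almost without exception, by small amounts. Of 73 tested ribosomal protein genes 71 were lower (median -0.13), and of 44 respiratory chain genes 43 were lower (median -0.15). The ribosomal list stood at 0.043, -0.046 and 0.18 after PBS and 0.14, -0.011 and -0.26 after BSA, and the respiratory list at 0.047, 0.094 and 0.090 after PBS and 0.063, -0.025 and -0.27 after BSA. BSA 14 was the lowest library in both, and BSA 10 lay within the PBS range in both. Rpl24, a large subunit protein, measured 208, 238 and 209.7 CPM after PBS and 193, 202 and 169.6 after BSA, a difference of -0.22 (95% interval -0.43 to -0.0033). Cycs, cytochrome c, had 34.6, 44.7 and 36.5 CPM after PBS and 34.2, 30.6 and 22.4 after BSA, a difference of -0.41 (95% interval -0.75 to -0.069). In both genes all BSA values were below all PBS values, which held for 2 of 73 and 3 of 44 members and for 2.72% of all tested genes, so the ribosomal count was at the background share. Rplp0, a stalk protein, had 2719, 2423 and 3489 CPM after PBS and 3208, 2384 and 2601 after BSA, a difference of -0.075 (95% interval -0.54 to 0.39), with overlapping ranges. Cox4i1, a subunit of cytochrome c oxidase, had 344, 294 and 384 CPM after PBS and 399, 290.4 and 277 after BSA, a difference of -0.082 (95% interval -0.51 to 0.34), also with overlapping ranges. Without BSA 14 the medians were -0.031 for the ribosomal and -0.060 for the respiratory list. Without PBS 11 they were -0.17 and -0.13. Many ribosomal protein genes have processed pseudogenes that share their sequence, so their counts are uncertain.

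Matrix genes define the fibroblast. Of 30 tested 24 were higher and 6 lower after BSA, with a median of 0.16, and PBS 11 was the lowest library for 22. Col1a1, a chain of type I collagen, measured 1827, 1342 and 3203 CPM after PBS and 2240.2, 2029 and 3215 after BSA, a difference of 0.23 (95% interval -0.37 to 0.84). Lox, which crosslinks collagen, had 4964, 2857 and 5313 CPM after PBS and 4267, 5966 and 5852 after BSA, a difference of 0.29 (95% interval -0.19 to 0.77). Thbs2, a thrombospondin and the member with the smallest p-value, had 488, 319 and 439 CPM after PBS and 463, 572 and 491 after BSA, a difference of 0.29 (95% interval 0.00011 to 0.58). The PBS 11 value was the lowest in each, and without that library the list's median was 0.018. Among the fibroblast markers, Pdgfra, a growth factor receptor, had 763, 309.9 and 779 CPM after PBS and 752, 809 and 858 after BSA, a difference of 0.38 (95% interval -0.15 to 0.92), and of 0.079 without PBS 11. Pdgfrb, a related receptor and the marker with the smallest p-value, had 163, 113 and 203 CPM after PBS and 165, 182 and 240.2 after BSA, a difference of 0.29 (95% interval -0.077 to 0.67). Vim, the intermediate filament of mesenchymal cells, had 6530.1, 6595 and 6830.3 CPM after PBS and 6738, 6078 and 5971 after BSA, a difference of -0.087 (95% interval -0.31 to 0.14), so this marker did not share the low value of PBS 11.

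Contractile genes and targets of the coactivator YAP formed the last list. Of 26 tested 8 were higher and 18 lower after BSA, with a median of -0.11, and 6, all lower, had an unadjusted p-value under 0.05, where 2.24% of all tested genes were lower at that threshold. Without PBS 11 that number was 0. Ctgf, a matricellular YAP target, measured 93.5, 168 and 84.6 CPM after PBS and 81.8, 64.2 and 78.8 after BSA, with a difference of -0.62 (95% interval -1.06 to -0.18). Cyr61, its relative, had 161, 269.6 and 142 CPM after PBS and 147, 137 and 131 after BSA, a difference of -0.46 (95% interval -0.89 to -0.032). Tagln, an actin-binding protein of contractile cells, had 445, 608 and 462 CPM after PBS and 466, 342 and 346 after BSA, a difference of -0.39 (95% interval -0.73 to -0.055). PBS 11 held the highest value in all 3, and for Ctgf all BSA values lay below all PBS values. Acta2, smooth muscle actin, had 1467, 1959 and 1499 CPM after PBS and 1401, 1207 and 1364 after BSA, a difference of -0.31 (95% interval -0.61 to -0.014), with BSA also below PBS. Without PBS 11 the differences of Ctgf, Cyr61, Tagln and Acta2 were -0.23, -0.11, -0.22 and -0.15, and the median of the list was 0.0082. The level of the list was -0.013, 0.17 and -0.013 after PBS and -0.052, -0.096 and -0.030 after BSA, all BSA below all PBS. That order held for 4 of 26 members, beside 2.72% of all tested genes.

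**Figure D4:**
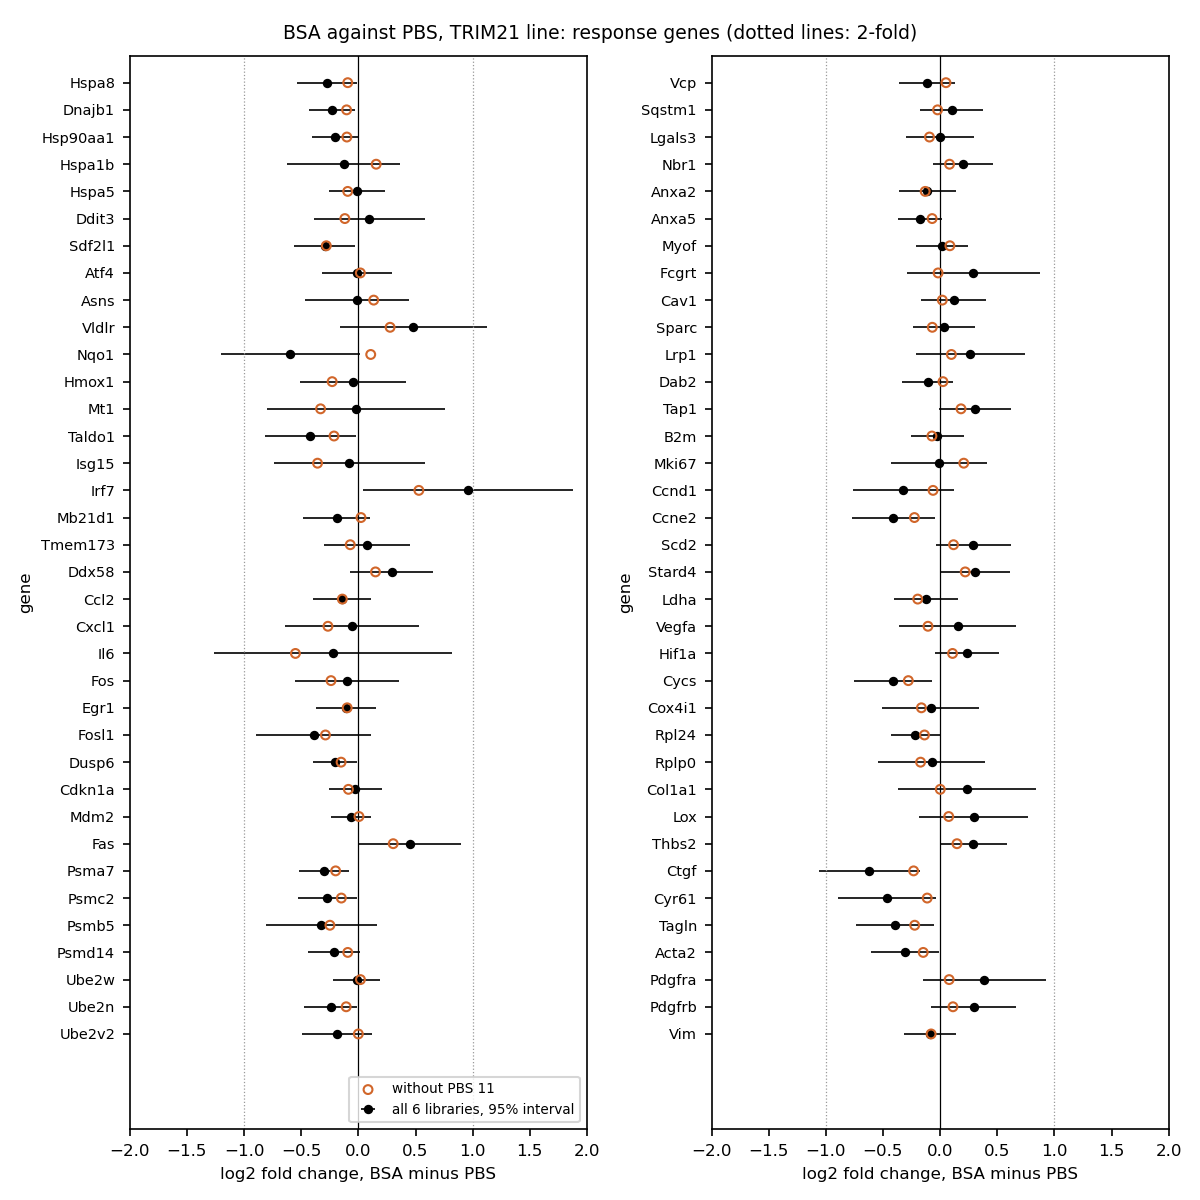
Log2 fold change of BSA against PBS in the TRIM21 line for genes of the lists, with 95% intervals (black points and bars) and the value without PBS 11 (open orange circles); dotted lines mark 2-fold. Most intervals include 0 and lie inside the dotted lines, those of Vldlr, Nqo1, Irf7, Il6 and Ctgf extend beyond them, and for Nqo1 the open circle lies on the other side of 0 from the point.

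The genes with the smallest unadjusted p-values are described next, as the top of a ranking in which none passed. On the higher side after BSA, the 5 first genes of at least 5 CPM were Zfp28, Madd, Kidins220, Abca3 and Trp53bp1. Zfp28 (chromosome 7, 6383295 to 6396915), a zinc finger gene, measured 11.5, 10.5 and 13.1 CPM after PBS and 14.6, 16.1 and 15.7 after BSA, a difference of 0.40 (95% interval 0.13 to 0.67). Madd (chromosome 2, 91137360 to 91183837), which codes for a death domain protein that activates Rab GTPases, had 12.5, 8.15 and 9.69 CPM after PBS and 13.2, 14.3 and 14.3 after BSA, a difference of 0.46 (95% interval 0.15 to 0.77). Kidins220 (chromosome 12, 24974925 to 25063152), a scaffold of neurotrophin receptors, had 127, 89 and 108 CPM after PBS and 132, 143 and 133 after BSA, a difference of 0.33 (95% interval 0.11 to 0.56). All BSA values lay above all PBS values in each, as the ranking favours. Abca3 (chromosome 17, 24351950 to 24410201), a lipid transporter, had 32.8, 24.8 and 33 CPM after PBS and 36.3, 36.4 and 42.6 after BSA, a difference of 0.35 (95% interval 0.10 to 0.60). Trp53bp1 (chromosome 2, 121193281 to 121271407), a DNA repair protein that binds p53, had 82, 62.8 and 74.5 CPM after PBS and 88.2, 88 and 85.9 after BSA, a difference of 0.26 (95% interval 0.066 to 0.45). All 5 genes were lowest in PBS 11, and without it the differences were 0.34, 0.35, 0.23, 0.24 and 0.17.

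On the lower side after BSA, the 5 first genes were Cd300lb, Fam216a, Mrpl47, Havcr2 and Mrpl18. Cd300lb (chromosome 11, 114922781 to 114934386), an immunoglobulin-like receptor gene, measured 9.7, 14.8 and 10.5 CPM after PBS and 7.27, 7.65 and 8.7 after BSA, a difference of -0.56 (95% interval -0.91 to -0.21). Fam216a (chromosome 5, 122364580 to 122372364) had 30.7, 36.9 and 31.5 CPM after PBS and 26.8, 27.1 and 26.6 after BSA, a difference of -0.30 (95% interval -0.49 to -0.11). Mrpl47 (chromosome 3, 32725397 to 32737605), a protein of the mitochondrial ribosome, had 21.7, 27.5 and 21.2 CPM after PBS and 18.6, 19 and 14.3 after BSA, a difference of -0.44 (95% interval -0.74 to -0.14). In these genes PBS 11 was the highest library and the BSA values lay below those of PBS 10 and PBS 14 too. Havcr2 (chromosome 11, 46454935 to 46481255), the immune receptor TIM-3, had 8.37, 13.7 and 7.51 CPM after PBS and 7.07, 6.08 and 5.82 after BSA, a difference of -0.63 (95% interval -1.08 to -0.19). Mrpl18 (chromosome 17, 12911349 to 12916345), another mitochondrial ribosomal protein, had 90, 110.0 and 89.5 CPM after PBS and 80.6, 71.7 and 72.2 after BSA, a difference of -0.37 (95% interval -0.62 to -0.11). Without PBS 11 the 5 differences were -0.34, -0.20, -0.30, -0.31 and -0.25. All 10 genes are protein coding, and positions refer to GRCm38.

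The parental line offers the same comparison in libraries that share no sample with it. The interaction term of the edgeR model asked whether the BSA difference varied with the line. It called 0 of 12140 genes (0%), the lowest adjusted p being 0.651, and 790 genes (6.51%) had an unadjusted p under 0.05, where the threshold alone would pass 607. For the WT line by itself 0 genes (0%) were called, and 302 had an unadjusted p under 0.05. For the interaction limma-voom and the DESeq2 Wald test called 0 genes, and 782 and 859 had an unadjusted p under 0.05. Leaving out PBS 11 of the TRIM21 line lowered that number to 334 in edgeR.

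Nhlrc3 and Sdf2l1 had the smallest interaction p-values in either direction among genes of at least 5 CPM, and neither passed. Nhlrc3 (chromosome 3, 53448583 to 53463332, GRCm38) measured 5.75, 4.65 and 5.47 CPM after PBS and 7.07, 6.13 and 6.44 after BSA in the TRIM21 line. In the WT line it measured 7.08, 4.58 and 6.85 CPM after PBS and 3.62, 4.93 and 4.1 after BSA. The log2 fold changes were 0.31 and -0.55, a difference between lines of 0.85. Sdf2l1 had 13.2, 14.9 and 11.4 CPM after PBS and 15.4, 17.7 and 15.2 after BSA in the WT line, where its log2 fold change was 0.29, and the difference between lines was -0.59. The TRIM21 and WT values of both genes had opposite signs, which a ranking on the difference between lines favours.

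Among the 23 lists with at least 5 tested members, the medians of the TRIM21 and WT lines lay farthest apart for the proteasome subunits and the ribosomal proteins. The ribosomal protein genes were lower after BSA in 71 of 73 cases in the TRIM21 line and higher in 73 of 73 in the WT line, with medians of -0.13 and 0.19. For the proteasome the medians were -0.23 and 0.10, with 33 of 39 higher in the WT line, and 14 of 39 members had an unadjusted interaction p-value under 0.05, beside 6.51% of all tested genes. Respiratory chain genes had medians of -0.15 and 0.12, and cell cycle genes -0.23 and 0.060. The interferon genes had 0.10 and -0.11. Without PBS 11 of the TRIM21 line, its medians were 0.022 for the cell cycle and -0.025 for the interferon genes. Both then had the sign of the WT median. For the proteasome, ribosomal and respiratory lists the TRIM21 medians were then -0.11, -0.17 and -0.13, still opposite in sign to WT. The WT medians depended on single WT libraries. Without WT PBS 14 they were 0.074 for the ribosomal proteins (70 of 73 higher), 0.059 for the proteasome, 0.051 for the respiratory chain, -0.027 for the cell cycle and 0.044 for the interferon genes, the signs of the last 2 being reversed. The number of proteasome members with an unadjusted interaction p-value under 0.05 was then 5, and 290 of all tested genes had one. Without WT BSA 10 the ribosomal, proteasome and respiratory medians were 0.10, 0.068 and 0.038, with 6 such proteasome members. In that fit 54 of 73, 28 of 39 and 28 of 44 members were higher after BSA in the WT line. Without WT BSA 11 the cell cycle and interferon medians were -0.052 and 0.0077. Rplp0, a single ribosomal gene, was low in WT PBS 14, with 3148, 2921 and 1545 CPM after PBS and 3577, 2915 and 3231 after BSA in the WT line. In each of these lists 0 members passed the interaction test after adjustment, and genes of a list share their libraries, so the counts describe these 12 libraries.

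**Figure D5:**
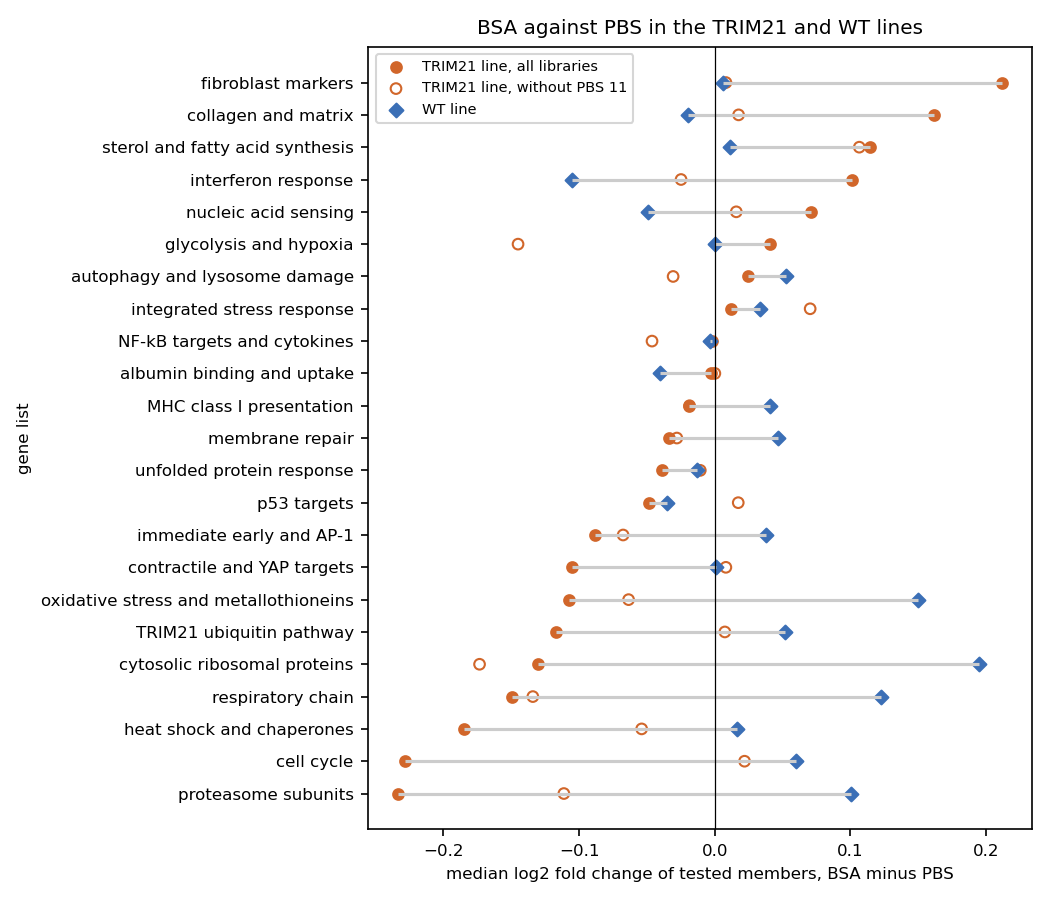
Median log2 fold change of BSA against PBS over the tested members of each gene list, in the TRIM21 line with all libraries (filled orange circles) and without PBS 11 (open orange circles), and in the WT line (blue diamonds). Grey lines join the lines' values; the widest gaps are those of the proteasome subunits (-0.23 and 0.10) and the ribosomal proteins (-0.13 and 0.19), and open circles lie nearer 0 than filled ones for the proteasome, cell cycle, heat shock, matrix and fibroblast lists.

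IgG reactions of the TRIM21 line share the PBS libraries with this comparison, so their values are set side by side without a test. The proteasome list had a median log2 fold change of -0.23 for IgG against PBS and -0.23 for BSA against PBS. For the cell cycle the values were -0.25 and -0.23, for heat shock -0.17 and -0.18, and for the interferon genes 0.29 and 0.10. Other lists had values farther apart: -0.023 and -0.13 for the ribosomal proteins, 0.0071 and -0.11 for the contractile and YAP targets, and 0.056 and -0.088 for the immediate early genes. PBS 11 enters every one of them.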

How the data were processed

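Each library has 1 deposited file of unnormalized counts, in which genes are listed by symbol. The submitters' processing notes name STAR 2.5.1b, HTSeq 0.6.0 and the build mm10, and the annotation and counting settings are not given in the sources used here. Per the closing lines of the deposited files, reads over several genes or aligned to several places were tallied apart from the genes, so genes with near-identical copies are undercounted. Libraries were strand-specific and polyA-enriched, per the labels' protocols.

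Differences were fitted in edgeR 4.0.16 (R 4.3.3). Of 24062 genes, filterByExpr (minimum count 10, minimum total 15) kept 12140. All 18 libraries entered a single quasi-likelihood fit that had a term for each of the 6 groups, scaled by TMM. Benjamini-Hochberg adjustment ran over all tested genes, and calls needed an adjusted p under 0.05. Intervals of 95% came from the model's standard error. List levels and distances used log2 CPM with a prior count of 2. Named genes were Trim21, genes marked in each list as first readouts (counted where not printed singly), the member of each list with the smallest p-value, the 5 genes with the smallest p-values in each direction among those of at least 5 CPM, and the gene with the smallest interaction p-value in each direction. The members and lists were chosen with earlier results of these data known. Some genes that this rule names are not reported here. No set test was made. Positions came from GENCODE (GRCm38, the same assembly as mm10) by symbol, with 22750 matched directly, 916 by synonym and 396 not matched.

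Alternatives were DESeq2 1.42.0 size factors, no filter, at least 10 counts in every library, the title number as a block, limma-voom (limma 3.58.1), the DESeq2 Wald test, only the groups compared, a GC offset (GC content known for 99.3% of tested genes) alone and with the block, and leaving out each library. The fitting was tested on simulated data. Chi-square per degree of freedom between libraries of a group was 25.9 to 82.0, so no pair was close enough to be counted as 1 library.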

Additional observations from a re-analysis of the deposited data

Results flagged for a closer look

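For 3 gene lists every BSA library lay on 1 side of the mean of the PBS libraries in the TRIM21 line and on the other side in the WT line, and this difference between the lines was not tested. The list of oxidative stress and metallothionein genes lay at -0.11 to -0.028 in the TRIM21 line and 0.023 to 0.20 in the WT line, a difference of mean levels of -0.20 (log2 CPM). The TRIM21 ubiquitin pathway list lay at -0.16 to -0.011 and 0.012 to 0.094, a difference of -0.15. This pattern rested on PBS 11: against the mean of PBS 10 and PBS 14 alone, BSA 10, 11 and 14 lay at -0.049, 0.097 and 0.0053. The other 2 lists kept their side in the TRIM21 line without PBS 11. The p53 targets lay at 0.020 to 0.068 and -0.080 to -0.023, a difference of 0.091, although the median log2 fold change of their members in the TRIM21 line was -0.048, of the opposite sign.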

How the results depend on the processing

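No gene passed after adjustment under any alternative run, in the TRIM21 line or for the difference between lines. The number of genes at an unadjusted p-value under 0.05, 447 in the TRIM21 line and 790 for the difference between lines, became 96 and 394 with only the groups compared. With a GC offset it was 707 in the TRIM21 line. Leaving out 1 library gave 72 (without PBS 11) to 1699 (without PBS 14) genes in the TRIM21 line and 290 (without WT PBS 14) to 1667 (without WT PBS 11) for the difference between lines, and the cause was not tested. The number of intervals inside 2-fold was 10470 to 11214.

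The title number was also used as a block, which gave 0 called genes, with 1108 genes at an unadjusted p-value under 0.05 in the TRIM21 line and 1497 for the difference between lines, and 1742 and 2132 with the GC offset as well. Deviations from the group means correlated at 0.0504, 0.241 and 0.522 for the PBS and BSA libraries numbered 10, 11 and 14, and not every library correlated best with its own number. The labels do not say what a number stands for.

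Single log2 fold changes near 0 turned sign: Isg15 was 0.027 with limma-voom, Lgals3 -0.0083 with DESeq2 size factors and the DESeq2 Wald test, and Mt1 0.015 with the block, 0.11 with limma-voom and 0.019 with the block and GC offset. Leaving out 1 library, the following log2 fold changes spanned 0: Hspa5 -0.093 to 0.034, Atf4 -0.11 to 0.055, Asns -0.21 to 0.15, Fos -0.24 to 0.11, Cdkn1a -0.087 to 0.034, Trim21 -0.14 to 0.011, Hspa1b -0.37 to 0.16, Ddit3 -0.12 to 0.37, Nqo1 -0.89 to 0.11, Mb21d1 -0.30 to 0.023, Tmem173 -0.071 to 0.23, Mdm2 -0.11 to 0.0052, Ube2w -0.070 to 0.048, Vcp -0.20 to 0.051, Sqstm1 -0.022 to 0.27, Lgals3 -0.093 to 0.11, Fcgrt -0.018 to 0.73, Sparc -0.068 to 0.18, Dab2 -0.21 to 0.025, Mki67 -0.25 to 0.21, Vegfa -0.11 to 0.35, Csf1r -0.29 to 0.0094, Hmox1 -0.23 to 0.22, Mt1 -0.33 to 0.55, Isg15 -0.36 to 0.44, Cxcl1 -0.27 to 0.23, Il6 -0.58 to 0.25, Myof -0.081 to 0.086, B2m -0.072 to 0.036, Cox4i1 -0.26 to 0.018, Rplp0 -0.20 to 0.092.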

Other observations

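Some listed genes had too few reads to describe. Hspb1, a small heat shock protein, had 0 to 5 counts in the 6 libraries, and Eno1, a glycolytic enzyme, had 0 to 2. Rpl26, Cdkn2a, an inhibitor of the cell cycle, and Gdf15, a stress cytokine, had 0 counts in all 6. Reads over several genes or aligned to several places were not counted, so such low counts do not show that a gene was silent. Whether this or the handling of symbols affected Eno1 and Rpl26 was not tested. Of the markers of other cell types, Krt14 (epithelial) and Cdh5 (endothelial) were the only members of their lists with enough reads to be tested. Csf1r had the smallest p-value of the 4 tested macrophage and leukocyte markers. Krt14 measured 1.28, 1.25 and 1.82 CPM after PBS and 1.03, 0.894 and 1.08 after BSA, Csf1r 2.38, 3.5 and 2.61 CPM after PBS and 2.62, 2.1 and 2.71 after BSA, and Cdh5 0.903, 2.15 and 0.465 CPM after PBS and 0.754, 0.581 and 0.556 after BSA.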
